A study of Mus musculus with 4 samples.

Results

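Dntt-positive progenitors are the lymphoid-primed end of the multipotent compartment of mouse bone marrow, and 967 of them were found among 13892 cells kept from 25242 deposited barcodes. The cells came from 4 single-cell libraries of LSK cells, which lack lineage markers and carry Sca1 and c-Kit on their surface. The 2 control libraries were from adult Nup358 fl/fl mice, whose genotype the sample labels give as wild-type. The 2 knockout libraries were from adult Nup358 fl/fl mice that also carried R26-CreERT2, a Cre recombinase made in all tissues and activated by tamoxifen. In the study both genotypes were treated with tamoxifen, so Cre and its activation differ between the groups together with the deletion, and each library was made from the pooled marrow of several animals. A library, not an animal or a cell, was therefore the replicate.

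A cell was kept when it held at least 1000 unique molecular identifiers (UMIs, each marking 1 captured transcript), when mitochondrial transcripts made up at most 10% of them, and when no other library held the same cell barcode with at least 3 times as many UMIs. A kept cell was counted as a Dntt-positive progenitor when it held at least 3 UMIs of Dntt, at least 1 UMI of Flt3, none of Procr, Ms4a1 or Siglech, and fewer than 5 of Igll1, Vpreb1 and Vpreb3 together. These 8 genes chose the cells, so their levels describe the rule and are not results. The 2 control libraries gave 288 and 214 such cells and the 2 knockout libraries 120 and 345. Where 4 values stand in a row they follow this order, control replicates 1 and 2 and then knockout replicates 1 and 2.

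Lymphoid-primed multipotent progenitors are the stage at which blood progenitors lose megakaryocyte and erythroid potential while keeping the capacity to form lymphocytes and some myeloid cells. Dntt encodes terminal deoxynucleotidyl transferase, which adds untemplated bases at the joints of immune receptor genes, and it is switched on before those genes are rearranged. Flt3 encodes a cytokine receptor that marks the same stage, whereas Procr marks stem cells, Igll1 and the Vpreb genes encode the surrogate light chain of early B cells, Ms4a1 encodes CD20 of mature B cells, and Siglech marks plasmacytoid dendritic cells. In the GRCm38 genome the files use, Dntt lies at chr19:41029275-41059525 on the plus strand and Flt3 at chr5:147330741-147400489 on the minus strand. Ranbp2, the mouse gene for the nucleoporin Nup358, lies at chr10:58446920-58494356 on the plus strand. All 3 are protein-coding, and reads of a 3' library fall mainly at the end of the transcript.

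Depth was uneven. The cells that met the rule held a median of 8025.5, 16852, 23067 and 17505 UMIs, with 2802, 4015, 5008.5 and 4272 genes detected in the median cell. Control replicate 1 was the shallowest library, and the summed depth of its progenitors was 2592273 UMIs against 3740934, 3306939 and 6679841 in the others. Mitochondrial transcripts made up a median of 3.08%, 3.49%, 3.35% and 2.70% of UMIs.

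The libraries also shared cell barcodes. Of the 967 progenitors, 719 carried a barcode that occurred in at least 1 other library (80 of 288, 205 of 214, 113 of 120 and 321 of 345 by library). For 155 of them the barcode occurred in all 4 libraries. A barcode is a tag, drawn from a fixed set, that marks the droplet a cell was captured in, and 4 are shown because the copies decide which cells enter each library. Each line gives the progenitor with the most UMIs among those of its library whose barcode was found in all 4.
Control replicate 1: tgtagactcattgttc
Control replicate 2: ccttgtgcacactggc
Knockout replicate 1: tgaatcgtcacctcac
Knockout replicate 2: gcctgttcaagtggac
The first of these held 42485 UMIs and 5 Dntt UMIs in control replicate 1, but 2031, 1244 and 1041 UMIs in the other libraries, with 0, 0 and 1 UMIs of Dntt. The barcode from knockout replicate 1 held 106026 UMIs there and 2500, 7310 and 3531 in the others. The median progenitor whose barcode recurred held 16.3 times as many UMIs as the largest copy, and 1 progenitor held less than 3 times as many, at 1.5. Such smaller copies made up 1369 of 9250, 5595 of 6839, 3161 of 4840 and 811 of 4313 deposited barcodes. Many of them also failed the UMI or mitochondrial rule. Of the barcodes that passed those 2 rules, 7797 of 8129, 1193 of 3556, 1571 of 2558 and 3331 of 3642 were left after removal, so control replicate 2 lost the most.

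Dntt-positive progenitors made up 3.69% (95% Clopper-Pearson interval 3.29 to 4.14) and 17.9% (15.8 to 20.2) of kept cells in the 2 control libraries, and 7.64% (6.37 to 9.06) and 10.4% (9.34 to 11.4) in the 2 knockout libraries. The intervals cover counting error only. Both knockout libraries lay between the 2 control libraries, so the groups overlapped. The mean share was 10.8% ± 10.1 (SD, n = 2) in controls and 9.0% ± 1.92 (SD, n = 2) in knockouts, a difference of -1.82 percentage points (two-sided exact permutation test over libraries, p = 1, where the smallest p that 2 against 2 allows is 0.33). Because 3 UMIs of Dntt are easier to reach in a deep cell, each cell of at least 3000 UMIs was also thinned to 3000, which left out 1067, 6, 118 and 187 shallower cells by library. With the rest of the rule applied to the thinned cell too, Flt3 included, and at least 1 Dntt UMI, the shares were 3.36%, 8.68%, 2.27% and 3.75%, and control replicate 2 again stood above the other libraries. For Dntt alone, 81.3% of the progenitors held a UMI after thinning. In Gata1-positive and Klf1-positive erythroid cells, which should lack Dntt, 3.19% did (10.1% before thinning), at a median of 16951 UMIs against 15200 in the progenitors. Without control replicate 1 the difference was -8.94 points and without control replicate 2 it was 5.30 points, and when smaller barcode copies were not removed it was 2.34 points.

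**Figure D1:**
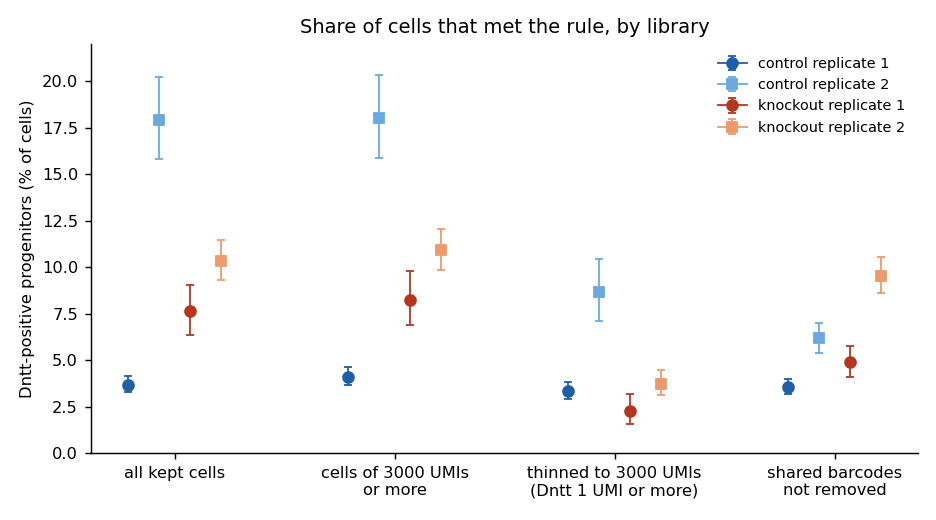
Share of cells that met the rule for Dntt-positive progenitors (y axis, percent of cells) in each of the 4 libraries (points, with 95% Clopper-Pearson intervals as bars) under 4 ways of counting (x axis). Control replicate 2 is highest at 17.9% and control replicate 1 lowest at 3.69% among all kept cells, and the 2 control libraries move closer together, to 6.19% and 3.57%, when barcodes shared between libraries are not removed.

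The thresholds cut through a continuum. Dntt reached a median of 5 UMIs per progenitor in control replicate 1 and 11 in each of the other 3 libraries, with a highest cell at 48, 79, 130 and 93 UMIs. Just inside the rule were 150 cells with exactly 3 Dntt UMIs, 76 of them in control replicate 1, and just outside were 236 cells with exactly 2 that met every other condition. A further 412 cells met the rule but for Flt3, 250 of them in control replicate 1, and 92 failed it through Procr alone. Flt3 stood at its minimum of 1 UMI in 59.7% of the progenitors of control replicate 1 and in 19.2%, 28.3% and 36.5% of those of the other libraries. As a level, Dntt was 814, 988, 716 and 877 CPM (UMIs of a gene scaled to the total of the same cells) and Flt3 was 172, 187, 114 and 121 CPM. Dntt overlapped between genotypes, while Flt3 was lower in both knockout libraries than in both controls. Both are given as a description, since the rule used them.

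The label of the cells was checked against markers of blood lineages. Kit stood at 77.5, 76.5, 63.2 and 57.9 CPM, Ly6a, which encodes Sca1, at 191, 246, 264 and 189 CPM, and Cd34 at 361, 327, 282 and 276 CPM, so the genes of the sort were present in all 4 libraries. Among lymphoid-primed markers outside the rule, Satb1 (129, 144, 119 and 142 CPM), Notch1 (67.5, 68.4, 78.0 and 76.8 CPM), Mef2c (519, 605, 439 and 410 CPM), Ikzf1 (170, 147, 174 and 182 CPM) and Cd27 (175, 166, 119 and 128 CPM) were above their level in the other kept cells of the same library in all 4 libraries. Rag1 (1.54, 0.802, 0.605 and 0.749 CPM) and Ccr9 (0, 0.267, 0.907 and 0 CPM) were at or near 0, Rag2 was between 2.41 and 7.34 CPM, and Il7r was between 12.7 and 23.3 CPM. Pax5 had no UMI in any library, which allows a level of up to 0.184 CPM over all progenitors, and Ebf1 and Cd79a stayed at or below 4.94 CPM and 2.54 CPM. Cd79b, which encodes a signalling chain of the B-cell receptor, was at 42.8, 34.8, 33.0 and 37.1 CPM, against 40.9, 35.2, 48.2 and 61.4 CPM in the other kept cells. Mpo, the myeloperoxidase of neutrophil precursors, was nevertheless abundant, at 1063, 335, 371 and 241 CPM against 3108, 1839, 571 and 394 CPM in the other kept cells.

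Genes that set the progenitors apart were described within each library as the log2 ratio of CPM plus 5 in the progenitors to CPM plus 5 in the other kept cells. No test is given, because the 8 genes of the rule drew the line between the 2 sets. The 15 highest median ratios outside the rule belonged to Arpp21 (2.15), AA467197 (2.07), Il12a (1.78), Satb1 (1.71), Ddx4 (1.66), Cmah (1.64), Wfdc17 (1.57), Cd33 (1.38), Slc16a11 (1.37), Il7r (1.37), Igf2r (1.33), Kcng1 (1.27), Cox6a2 (1.24), Notch1 (1.21) and Emp1 (1.17), and each was above 0 in all 4 libraries. Several have known roles in lymphoid cells. Il7r encodes the interleukin-7 receptor that early B and T cells depend on, Notch1 the receptor that directs progenitors to the T lineage, Satb1 a chromatin organiser of lymphoid cells, and Il12a a subunit of interleukin-12 and interleukin-35. Ddx4, an RNA helicase best known from germ cells, stood at 18.1, 27.3, 26.0 and 22.9 CPM against 2.27, 2.51, 4.90 and 5.31 CPM in the other cells. Arpp21, whose gene lies at chr9:112065091-112235938, stood at 20.1, 23.8, 36.9 and 56.6 CPM in the progenitors and at 1.52, 2.05, 2.21 and 7.75 CPM in the other cells.

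The 10 lowest ratios were those of S100a9 (-4.00), S100a8 (-3.60), Jchain (-3.14), Car1 (-2.73), Ly6c2 (-2.56), Pf4 (-2.47), Camp (-2.34), Elane (-2.32), Ms4a3 (-2.26) and Ngp (-2.21). They mark granulocytes and monocytes (S100a9, S100a8, Ly6c2, Camp, Elane, Ms4a3 and Ngp), plasma cells (Jchain), erythroid cells (Car1) and platelets (Pf4). Elane, the neutrophil elastase gene, was at 343 CPM in the progenitors of control replicate 1 but at 13.4, 28.4 and 2.25 CPM in those of the other libraries, so control replicate 1 stood apart. Control replicate 2 had the widest gap between progenitors and other cells for several of these genes, since its other cells held 1022 CPM of S100a9 against 99.6, 54.6 and 92.6 CPM in the other libraries.

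**Figure D2:**
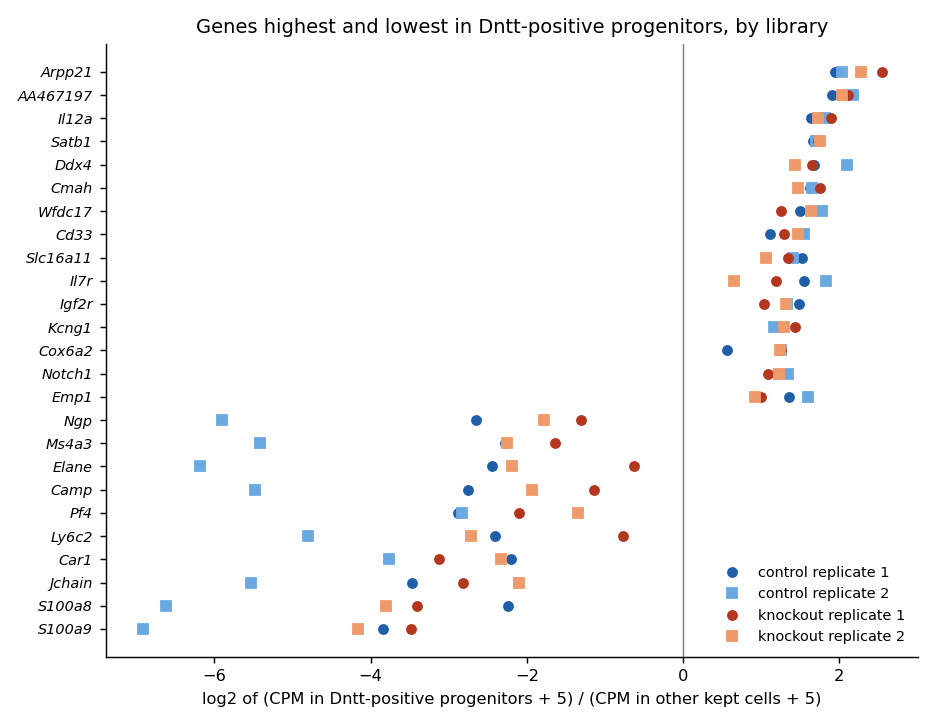
Log2 ratio of CPM plus 5 in Dntt-positive progenitors to CPM plus 5 in the other kept cells of the same library (x axis) for the 15 genes with the highest and the 10 with the lowest median (y axis), with 1 point per library. All 4 points lie above 0 for the upper 15 genes and below 0 for the lower 10, and the lower genes vary more between libraries, with control replicate 2 farthest from 0 for most of them.

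Gene lists were described in the same way. Over the 9412 genes above 10 CPM in progenitors plus other cells, 14.6% were higher in the progenitors of all 4 libraries and 17.8% were lower in all 4. Of 18 early lymphoid surface and signalling genes, 10 were higher in all 4 and 1 was lower (median log2 ratio 0.36). Of 18 lymphoid transcription factors, 9 were higher and 4 lower (0.15), and of 10 genes of V(D)J recombination, 3 were higher and none lower (0.08). Of 16 megakaryocyte and erythroid genes, 15 were lower in all 4 libraries (-1.21), of 18 neutrophil and monocyte genes 11 were lower (-0.92), and of 18 stem cell genes 11 were lower and 1 higher (-0.52). Of 12 B-lineage genes, 2 were higher and 7 lower (-0.50), and of 15 T and NK genes in the files 1 was higher and 6 lower (-0.18). Of the 18 G2/M genes, which are transcribed as cells prepare to divide, 10 were higher in all 4 libraries and none lower (0.16), whereas of the 18 S-phase genes 3 were higher and 1 lower (0.02). Against the 1897 kept cells that met the same rule but held no Dntt UMI, hereafter Flt3-positive Dntt-zero cells, 13 of 18 neutrophil and monocyte genes were lower in all 4 libraries (-0.83), where 16% of all genes were, and 12 of 18 early lymphoid genes were higher (0.30), where 14% of all genes were.

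The progenitors differed among themselves along their Dntt content. They were divided by Dntt UMIs per 10000 UMIs into those under 5 (95, 86, 58 and 155 cells by library), from 5 to 10 (91, 46, 28 and 72), from 10 to 20 (66, 46, 20 and 72) and 20 or more (36, 36, 14 and 46). The ratio is confounded with depth in the lowest bin, because a cell must be deep to hold 3 UMIs of Dntt there, and the bins share their libraries, so the levels are given as a description. Il7r was 5.73, 8.05, 1.56 and 4.95 CPM in the lowest bin and 46.3, 43.9, 95.7 and 73.9 CPM in the highest, a step in the same direction in all 4 libraries. Notch1 went from 50, 45.8, 57.9 and 46.3 to 157, 123, 176 and 132 CPM and Satb1 from 98.3, 125, 87.6 and 110 to 190, 197, 235 and 209 CPM. Rag2, a subunit of the recombinase that cuts immune receptor genes, stood at 37.1 and 22.4 CPM in the highest bin of the knockout libraries and at 4.63 and 3.37 CPM in that of the controls, while its partner Rag1 was at 0, 0, 3.09 and 6.60 CPM. Those Rag2 values rest on 14 and 46 knockout cells.

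Mpo, Elane, Hlf and Gata2 were lower in the highest Dntt bin than in the lowest. Mpo was 1707, 476, 533 and 303 CPM in the lowest Dntt bin and 222, 137, 127 and 188 CPM in the highest, and Elane was 707 CPM in the lowest bin of control replicate 1 against 0 in the highest. Hlf, a transcription factor of stem and early multipotent cells, was 122, 142, 90.7 and 112 CPM in the lowest bin and 97.2, 45.5, 21.6 and 19.8 CPM in the highest. Gata2, another early factor, went from 41.8, 32.2, 32.3 and 34.7 to 23.1, 8.43, 0 and 3.96 CPM. Other stem cell genes did not share one direction. Meis1 went from 135, 115, 115 and 116 to 218, 147, 127 and 67.3 CPM, higher in 3 of the 4 libraries. Mecom was higher in the highest bin in control replicate 1 alone (41.8 to 69.4 CPM), and Ly6a was higher there in every library but knockout replicate 1. Egr1 showed no order along the bins but separated the genotypes in each of them, between 141 and 225 CPM in controls and between 19.1 and 44.6 CPM in knockouts.

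**Figure D3:**
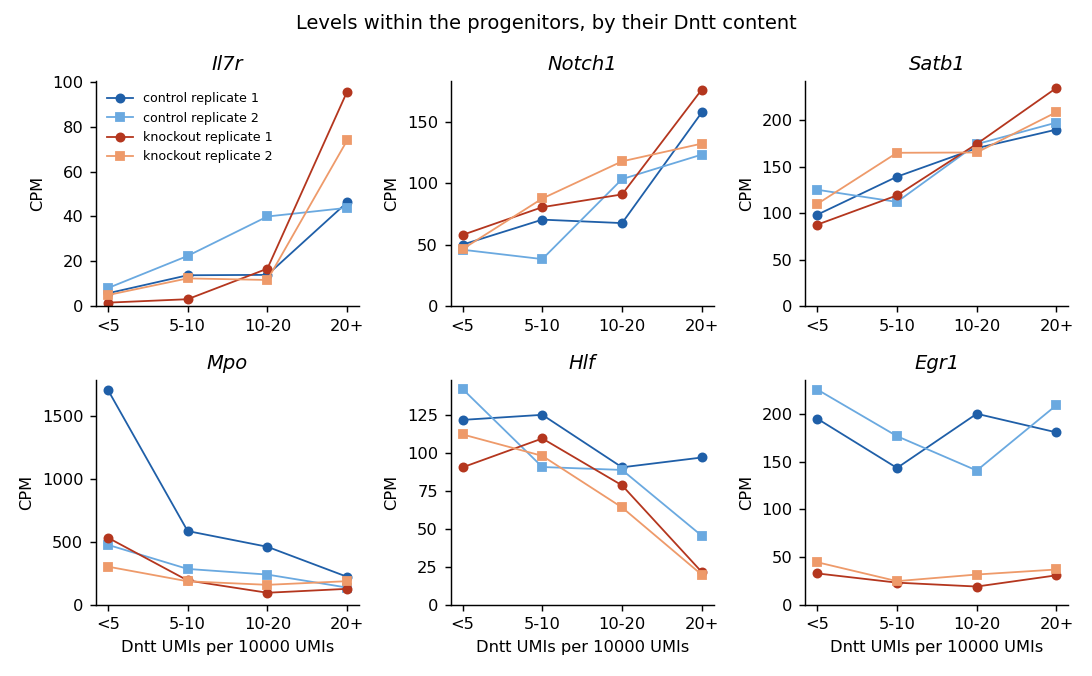
Levels of 6 genes (y axes, CPM) in progenitors grouped by Dntt UMIs per 10000 UMIs (x axes), with 1 line per library. Il7r, Notch1 and Satb1 are highest in the bin of most Dntt in all 4 libraries, Mpo and Hlf are lower there than in the bin of least Dntt in all 4, and Egr1 keeps the 2 genotypes apart in every bin.

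Knockout progenitors held less RNA of immediate early genes, such as Egr1, Fos and Jun, and of the regulator Rgs1, and more of the cyclin gene Ccnd1, the importin gene Kpnb1 and Tesc. Egr1, Fos, Jun, Ccnd1 and Kpnb1 were also called, in the same direction, in the Flt3-positive Dntt-zero cells. The lymphoid transcription factors on the list gave no call in the progenitors. Whether deletion of Nup358 changed gene expression in these cells was tested on UMIs summed over the progenitors of each library (edgeR quasi-likelihood test, Benjamini-Hochberg adjustment over all genes tested, called at an adjusted p under 0.05). Of 10276 genes tested, 42 were called higher (0.409%) and 128 lower (1.25%) in knockouts, 1.65% in all. Leaving out control replicate 1 gave 1771 calls (16.5% of the genes tested in that fit), leaving out control replicate 2 gave 657 (6.25%), leaving out knockout replicate 1 gave 10 (0.0927%) and leaving out knockout replicate 2 gave 4 (0.0376%), where the lone library of a group is assumed to vary like the others. The number of calls is thus not stable, and counts on gene lists with 1 library left out are to be read against these shares. Of the 170 genes, 7 were still called without knockout replicate 1 (Egr1, Rgs1, Greb1, Ly6d, Tesc, Jchain and, outside the naming rule, Pcp4l1) and 3 without knockout replicate 2 (Egr1, Ly6d and Jchain), so every other gene named below as called lost its call in both of these fits. After thinning each cell to 3000 UMIs, 14 of the 143 still tested were called, among them Egr1, Fos, Jun, Rgs1, Rgs2, Ccl3, Ccl4, Ypel3, Ccnd1 and Jchain, and 15 genes were called in all (0.205%). At an unadjusted p under 0.05, 1820 genes differed with all libraries, and DESeq2 called 26 higher and 77 lower (1.03%), 87 of them among the 170. Knockout fold changes below are on the log2 scale with the standard error of the fit, and levels are CPM scaled by the trimmed mean of M-values (TMM).

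Ranbp2 itself stood at 122 and 104 CPM in controls and 125 and 122 CPM in knockouts (log2 change 0.12 ± 0.17 SE, edgeR adjusted p = 0.76). The groups lay close together. The study removed a single exon near the start of the gene, whereas these libraries count the 3' end of transcripts, so this level does not check the deletion.

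Immediate early genes were lower in the knockout progenitors. These genes, among them the transcription factors Fos, Jun and Egr1, are transcribed soon after a stimulus, before new protein is made. Of the 16 on the list, 10 fell, none rose and 6 did not pass the test (median log2 change -1.24, against -0.01 over all genes tested). The count of calls on the list was 16 without control replicate 1, 13 without control replicate 2, 1 without either knockout library and 3 after thinning each cell to 3000 UMIs. Egr1, a zinc-finger transcription factor, was at 174 and 205 CPM in controls and at 29.0 and 37.7 CPM in knockouts (log2 change -2.49 ± 0.20 SE, edgeR adjusted p = 0.00012). Both knockout libraries were far below both controls, and 18 of 18 alternatives called the change. Fos, at chr12:85473890-85477273, was at 889 and 1041 CPM in controls and 290 and 401 CPM in knockouts (-1.48 ± 0.22, adjusted p = 0.0089). Jun, at chr4:95049034-95052222, was at 569 and 529 CPM in controls and 203 and 184 CPM in knockouts (-1.51 ± 0.18, adjusted p = 0.0026). For Fos and Jun the groups did not overlap either. Nr4a1, an orphan nuclear receptor (-2.31), Atf3, a stress-induced factor (-1.76), and Btg2, an antiproliferative gene (-1.58), also fell. So did Klf6 (-1.47), Klf2 (-1.21), Jund (-1.02) and Ier2 (-0.82). Jund and Ier2 lost the call with at least 5 Dntt UMIs, after thinning and without TMM. Ier2 also lost it with Flt3 not required and with members over 2 times the median UMIs left out. The same held for Ier2 with members rich in Jchain, Mzb1 and Ly6d, or holding a UMI of Elane, S100a8 or S100a9, left out. Junb was at 171 and 442 CPM in controls and 107 and 166 CPM in knockouts and did not pass (adjusted p = 0.35), nor did Fosb, Dusp1, Ier3, Zfp36 and Socs3. The list was also lower in Flt3-positive Dntt-zero cells, where 7 of 16 fell and the median was -1.19 (2.22% of 11013 genes were called there).

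The 250 bases before the start of the immediate early genes that fell were searched on either strand for TGACGT. This is the core of the cAMP response element that ATF and CREB factors bind. RefSeq promoters of the GRCm38.p6 assembly were matched for 8 of the 10 genes that fell, and 3 of the 8 held the motif, which 6.47% of the 32851 promoters in the table hold. The 3 are shown 5′ to 3′ on the strand of the gene, with each match in capitals.
Fos, chr12:85473640-85473889, plus strand: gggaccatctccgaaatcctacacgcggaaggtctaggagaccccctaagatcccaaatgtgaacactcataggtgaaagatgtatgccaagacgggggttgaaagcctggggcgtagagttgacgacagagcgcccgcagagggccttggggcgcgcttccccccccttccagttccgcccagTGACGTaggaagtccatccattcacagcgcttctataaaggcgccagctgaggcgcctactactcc
Btg2, chr1:134079156-134079405, minus strand: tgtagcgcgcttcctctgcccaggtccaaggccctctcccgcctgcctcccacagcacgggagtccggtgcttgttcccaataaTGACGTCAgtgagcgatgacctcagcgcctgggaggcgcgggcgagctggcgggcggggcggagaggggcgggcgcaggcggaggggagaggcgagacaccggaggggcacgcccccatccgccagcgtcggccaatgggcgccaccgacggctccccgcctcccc
Atf3, chr1:191183334-191183583, minus strand: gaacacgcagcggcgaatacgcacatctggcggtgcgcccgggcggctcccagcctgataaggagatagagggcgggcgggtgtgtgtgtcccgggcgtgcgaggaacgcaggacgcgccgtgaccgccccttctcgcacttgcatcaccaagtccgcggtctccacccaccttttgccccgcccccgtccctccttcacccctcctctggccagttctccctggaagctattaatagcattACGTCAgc
In Btg2 a match on each strand overlaps to give TGACGTCA. Jun, Jund, Klf2, Klf6 and Nr4a1 held no match, and no promoter was matched for Egr1 and Ier2. The search covered only genes that fell, so it makes no comparison with the rest of the list. A match is a stretch of letters, binding was not measured, and a link to the knockout was not tested.

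The 10 largest falls included signalling and inflammatory genes. Ccl3, a chemokine, was at 157 and 363 CPM in controls and 22.3 and 30.0 CPM in knockouts (log2 change -3.29 ± 0.47 SE, edgeR adjusted p = 0.049). Ccl4, its neighbour in function, was at 138 and 296 against 28.1 and 38.4 CPM (-2.70 ± 0.40, edgeR adjusted p = 0.040). Rgs1, a regulator of G-protein signalling, was at 172 and 271 CPM in controls and 47.4 and 40.7 CPM in knockouts (-2.34 ± 0.23, adjusted p = 0.00084). In these 3 genes control replicate 2 was the highest library, and the groups did not overlap. The call of Ccl3 was lost with at least 5 Dntt UMIs, with barcode copies kept, with at least 3000 UMIs per cell, with crossed replicate blocks and without either knockout library, and its log2 change was -2.54 without control replicate 2. Without control replicate 2 that of Ccl4 was -2.02, and its call was lost with at least 5 Dntt UMIs, with crossed replicate blocks and without either knockout library. Rgs1 lost its call without knockout replicate 2. Greb1 (-2.70), the immune receptor gene Lag3 (-2.51), Ccdc73 (-2.38) and the interferon-inducible genes Ifi204 (-3.05) and Pydc4 (-2.41) fell as well, with Egr1 given above. Without control replicate 2 the changes were -1.65 for Lag3, -1.54 for Ccdc73, -2.13 for Ifi204 and -1.55 for Pydc4, and all 4 calls were lost there and without either knockout library. Greb1 lost its call after thinning and without knockout replicate 2. The calls of Lag3, Ccdc73 and Pydc4 were also lost with at least 5 Dntt UMIs. Those of Ccdc73 and Pydc4 were lost with Flt3 not required and by DESeq2. Ccdc73 further lost its call without TMM and with members rich in Jchain, Mzb1 and Ly6d left out. Ifi204 rested on 54 control and 10 knockout UMIs in all. S100a8 (-4.34, adjusted p = 0.031) had 55 and 22 UMIs in controls against 3 and 3 in knockouts, but 51 of the 55 were in 1 cell of control replicate 1. Its log2 change was -3.28 without that library, and the call was lost with at least 5 Dntt UMIs and without either knockout library. The pooled ratio was 20.2 (95% counting interval 8.88 to 56.8). Further along the list of falls, chosen after their values were seen, stood Ypel3 (-1.76), Klf9 (-1.60), Rgs2 (-1.32), Pik3ip1 (-1.29), Zbtb20 (-1.13) and Hbp1 (-0.95).

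The largest rises need to be read cell by cell. Jchain, which encodes the joining chain of antibody polymers in plasma cells, had 1 and 0 UMIs in controls and 244 and 533 in knockouts (edgeR adjusted p = 1.5e-06, pooled ratio 493 with a 95% counting interval of 88.2 to 19487). Of those, 242 were in a single cell of knockout replicate 1 and 530 in a single cell of knockout replicate 2, and 3 of 120 and 4 of 345 progenitors held any. Ly6d, an early B-cell and plasmacytoid surface gene, had 4 and 6 UMIs in controls and 116 and 108 in knockouts (3.92 ± 0.52, adjusted p = 0.0089), 96 and 37 of them in the highest cell of each knockout library. With the 2 and 3 knockout progenitors that held at least 10 UMIs of Jchain, Mzb1 and Ly6d left out, neither gene passed the filter on low counts, and the number of genes called was 30 higher and 114 lower. No control progenitor was left out under that limit. Jchain was also not tested with members over 2 times the median UMIs left out, nor with at least 5 Dntt UMIs. Ly6d lost its call after thinning (2.58) and with cells holding a UMI of Elane, S100a8 or S100a9 left out (4.46). Tesc, which encodes the calcium-binding protein tescalcin, had 1 and 1 UMIs in controls and 24 and 57 in knockouts, spread over 22 of 120 and 52 of 345 progenitors with no more than 2 UMIs in any cell. Its pooled ratio was 25.7 (95% counting interval 6.88 to 216), and it rose in the test (adjusted p = 0.0057). The call was lost after thinning and without knockout replicate 2, and the log2 change of 4.52 was 3.23 when Flt3 was not required.

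The other rises among the largest 10 were smaller in size. Ccnd1, which encodes cyclin D1, was at 11.2 and 21.6 CPM in controls and 44.6 and 56.9 CPM in knockouts (log2 change 1.61 ± 0.28 SE, edgeR adjusted p = 0.020), and 56.7% and 49.0% of knockout progenitors held a UMI against 9.38% and 23.4% of controls. The change became 1.26 when the first control library was left out and 2.21 when the second was, and the call was lost with at least 5 Dntt UMIs and without either knockout library. The median depth of the cells was also lower in both control libraries, by a wide margin only in control replicate 1, and the part of depth in these shares was not tested. Fam84b (1.87), Phlda3, a p53 target (1.51), Arhgdig (1.70), Atp1b1 (1.67), 1190005I06Rik (2.17) and 4930519L02Rik (1.58) completed the 10. All 6 lost the call without either knockout library. That of Phlda3 was also lost by DESeq2 and after thinning (0.84). Those of Arhgdig, Atp1b1 and 1190005I06Rik were also lost by DESeq2 and with at least 5 Dntt UMIs. With Flt3 not required, Arhgdig and Atp1b1 lost the call too, as did Atp1b1 with at most 200 members per library. That of 1190005I06Rik was also lost without TMM, without control replicate 2 and with cells holding a UMI of Elane, S100a8 or S100a9 left out. That gene rested on 9 control and 65 knockout UMIs. Fam84b and 4930519L02Rik lost theirs with at least 5 Dntt UMIs, and Fam84b after thinning too. Below them, and chosen after their values were seen, were the following, for most of which no list had been set. Rrp12 (1.10), Utp20 (1.05), Tsr2 (1.03), Polr1b (1.02), Tsr1 (0.92), Sdad1 (0.78) and Nolc1 (0.73) act in making ribosomes. No list of such genes was set or tested, so these picks do not show a change of the group. Each lost its call with at least 5 Dntt UMIs. Of them DESeq2 called only Utp20 and Nolc1, and only Utp20 and Tsr2 were called without TMM. Kpnb1 (1.03) and Tnpo1 (0.90) encode importins that carry proteins through the nuclear pore. Kpnb1, at chr11:97159714-97187881, was at 94.5 and 74.1 CPM in controls and 171 and 172 CPM in knockouts, and the groups did not overlap. Among the other rises were Fasn of fatty acid synthesis (1.06), Mat2a of S-adenosylmethionine synthesis (0.87), Odc1 of polyamine synthesis (0.75) and the amino acid transporter Slc7a1 (1.00). Kpnb1, Tnpo1 and each of these lost the call after thinning. With Flt3 not required, Tnpo1, Fasn, Odc1 and Slc7a1 lost it, and with at least 5 Dntt UMIs Tnpo1 and Odc1. Odc1 also lost it without TMM, with the replicate number as block and with members rich in Jchain, Mzb1 and Ly6d left out. Slc7a1 lost it without TMM, by DESeq2, with at most 200 members per library and with members over 2 times the median UMIs left out.

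**Figure D4:**
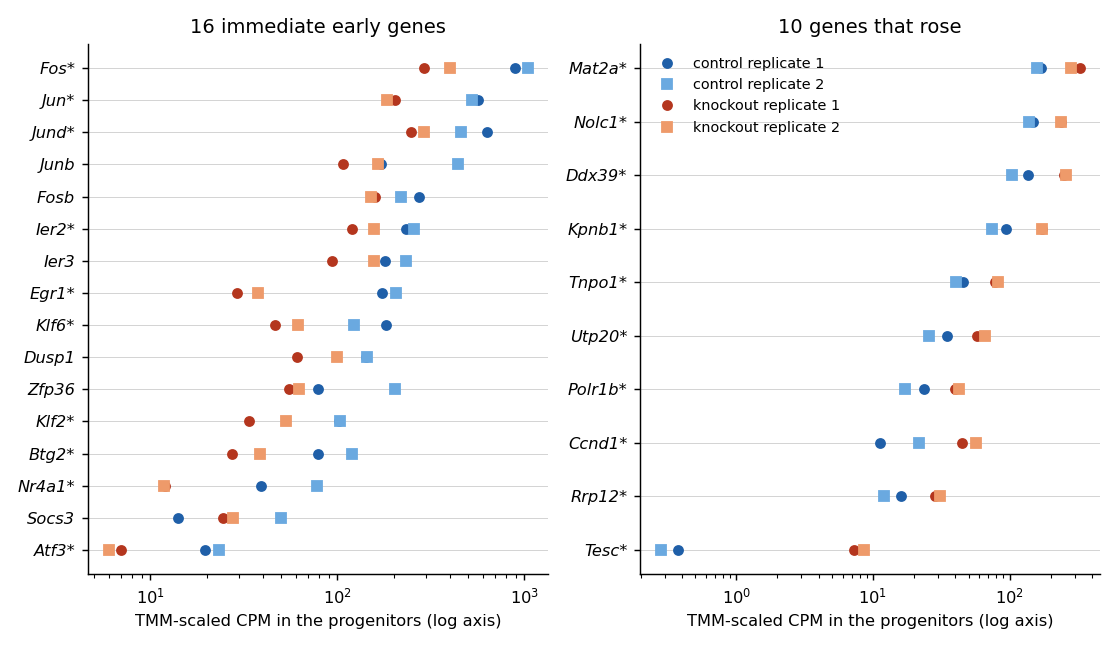
TMM-scaled CPM in Dntt-positive progenitors (x axes, log scale) for the 16 immediate early genes (left) and for 10 of the 42 genes called higher in knockouts, picked after the test (right), with 1 point per library and an asterisk at genes with an edgeR adjusted p under 0.05. The 2 knockout points lie left of the 2 control points for all 10 asterisked genes on the left, and right of them for all genes on the right.

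On the lymphoid lists, Lsp1 and Ly6d were the genes called with all libraries. Of 16 lymphoid transcription factors tested, none was called (median log2 change -0.12), and of 8 tested genes of V(D)J recombination none was called (-0.06). Without control replicate 1, where 16.5% of all genes were called, each of these lists gave 2 calls, and without control replicate 2 their medians were 0.05 and 0.08. Satb1 was at 125 and 151 CPM in controls and 119 and 142 CPM in knockouts (-0.08 ± 0.18), and Notch1 at 65.1 and 71.9 against 77.8 and 77.0 CPM (0.17 ± 0.17). Of 17 early lymphoid surface and signalling genes tested, 1 was called, Lsp1, an actin-binding protein of leukocytes, which fell (-0.92, adjusted p = 0.031), and 13 of the 17 estimates were negative (median -0.44). Without control replicate 1 the list gave 10 calls, without control replicate 2 it gave 6, and without either knockout library it gave none. Ltb, which encodes lymphotoxin beta, was at 44.3 and 72.7 CPM in controls and 10.9 and 27.8 CPM in knockouts without passing (adjusted p = 0.18). Of 6 B-lineage genes tested only Ly6d was called, and the median of 0.81 became -0.02 without the 5 knockout cells described above. None of 5 tested T and NK genes was called (0.41), against 3 and 1 when the first or the second control library was left out.

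Some myeloid and stem cell genes detected in the progenitors fell in knockouts. Of 16 neutrophil and monocyte genes tested, Csf1r, the receptor of macrophage colony-stimulating factor (-1.88), Csf2ra, a chain of the granulocyte-macrophage receptor (-1.27), and Gstm1 (-0.96) fell. Each lost the call with at least 5 Dntt UMIs, and Csf1r and Gstm1 also without TMM and by DESeq2. Csf2ra and Gstm1 lost it after thinning, where Csf1r was not tested. Csf1r lost it too with at most 200 members per library. The same held with members over 2 times the median UMIs, or rich in Jchain, Mzb1 and Ly6d, left out. On the list, 15 of the 16 estimates were negative (median -1.07). Leaving out control replicate 1 moved the median to -0.17, and leaving out control replicate 2 moved it to -1.74, with 6 and 10 calls, and there was none without either knockout library. Any UMI of Elane, S100a8 or S100a9 was held by 17.0% and 22.9% of control progenitors and by 11.7% and 4.64% of knockout progenitors. With all such cells left out, 71 genes were called higher and 154 lower (2.25% in all). The median of the neutrophil and monocyte list was then -0.63, with 4 of its genes called lower. Irf8, a transcription factor of monocytes and dendritic cells, was at 166 and 153 CPM in controls and 90.5 and 79.1 CPM in knockouts (-0.91 ± 0.17, edgeR adjusted p = 0.026), and the call was lost with at least 5 Dntt UMIs, after thinning and without either knockout library. Of 16 stem cell genes tested, Mecom (-0.98, edgeR adjusted p = 0.040) fell in addition to Egr1, and the median was -0.34. Mecom lost its call with at least 5 Dntt UMIs, with Flt3 not required, after thinning, without TMM and by DESeq2. The stem cell list gave 7 calls without the first control library, 3 without the second and 1 without either knockout library. Mecom, which encodes a zinc-finger factor of stem cell maintenance, stood at 43.2 and 60.4 CPM in controls and 27.4 and 25.4 CPM in knockouts. Of 7 tested genes of the plasmacytoid and Irf8 list, Irf8 fell and Ly6d rose (median -0.004), and of 11 megakaryocyte and erythroid genes the globin Hbb-bt rose (1.05, adjusted p = 0.037, list median -0.26). That median was 0.82 without control replicate 1, and Hbb-bt was not called with the cells holding a UMI of Elane, S100a8 or S100a9 left out.

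With all libraries no gene of the S-phase and G2/M lists was called. None of 18 S-phase genes (median 0.26, 15 positive) and none of 18 G2/M genes (median 0.12) was called. Without control replicate 1, 14 of the G2/M genes were called (median 0.67), and without control replicate 2 the median was -0.23. Of 11 D cyclins and cyclin kinase inhibitors, Ccnd1 rose and Cdkn1b, which encodes the inhibitor p27, fell from 81.5 and 94.6 CPM to 37.4 and 44.1 CPM (-1.10 ± 0.19, adjusted p = 0.015). Cdkn1b lost its call after thinning and without either knockout library, and the list gave 6 calls without the first control library and 4 without the second. Ccnd2 was at 162 and 170 CPM in controls and 286 and 261 CPM in knockouts and just missed the threshold (0.72 ± 0.17, adjusted p = 0.0515). Of 12 tested p53 targets, Phlda3 rose and Trp53inp1 fell (median 0.26). DESeq2 called neither, and the list gave no call after thinning. Trp53inp1 also lost its call with at least 5 Dntt UMIs, with at least 3000 UMIs per cell and with Flt3 not required. The same held without TMM and with at most 200 members per library. Of 20 genes on the Nup358, Ran cycle and nuclear import list, Kpnb1 was called with all libraries, and 19 of the 20 estimates were positive (median 0.28). Both this list and the p53 targets gave 7 calls without control replicate 1, 4 without control replicate 2 and none without either knockout library. With cells holding a UMI of Elane, S100a8 or S100a9 left out, 3 import genes were called. None of 9 Hdac3 and NCoR genes (0.09), 6 MHC class II genes (0.32), 12 interferon response genes (-0.50) or 8 Bcl2 family genes (-0.04) was called. Without control replicate 1, where 16.5% of all genes tested were called, there were calls for 3 Hdac3 and NCoR genes, 7 interferon response genes and 4 Bcl2 family genes.

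**Figure D5:**
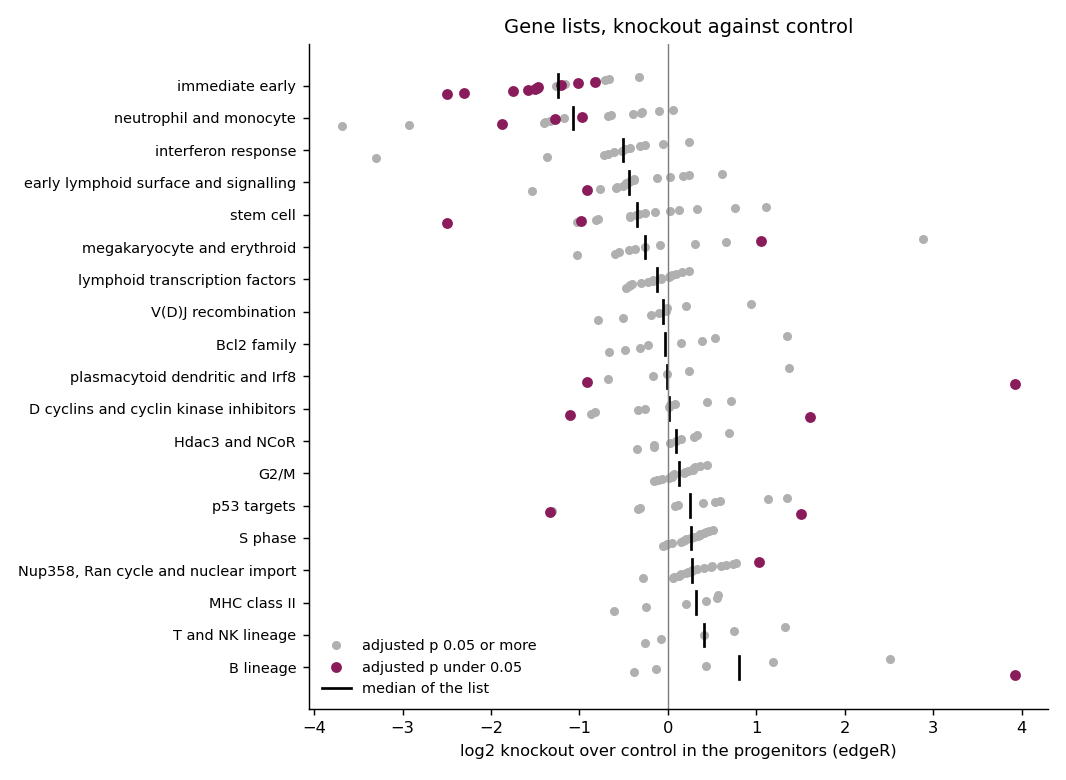
Log2 knockout over control in Dntt-positive progenitors (x axis) for the tested genes of 19 lists (y axis, ordered by median), with 1 point per gene, coloured where the edgeR adjusted p was under 0.05, and a bar at the median. The immediate early list lies farthest to the left with 10 coloured points, while the lymphoid transcription factor, S phase, G2/M and Hdac3 lists hold none.

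Whether the knockout difference was the same in cells with and without Dntt was tested against the Flt3-positive Dntt-zero cells of the same libraries (edgeR interaction of cell set and genotype, library as block). Of 10981 genes tested, 100 had a higher knockout difference in the progenitors (0.911%) and 67 a lower one (0.61%), 1.52% in all. Egr1 (interaction -0.09 on the log2 scale, adjusted p = 0.86), Ccnd1 (adjusted p = 0.65) and Kpnb1 (adjusted p = 0.84) were not among them. Each of these genes was called between genotypes in the same direction in both cell sets. A p that misses the threshold does not show that the cells responded alike. The 100 had a median change of 0.15 in progenitors and -0.64 in the other cells. Clec12a, a myeloid lectin receptor, was at 129 and 97.6 CPM in control and 94.0 and 90.7 CPM in knockout progenitors, but at 127 and 131 against 34.0 and 23.4 CPM in Flt3-positive Dntt-zero cells. Irf8 fell by 0.91 in progenitors and by 1.74 in the other cells (adjusted p of the difference 0.00013). In the second set Hlf was at 116 and 106 CPM in control and 86.2 and 90.6 CPM in knockout progenitors, yet at 99.8 and 101 against 141 and 172 CPM in the other cells (adjusted p of the difference 2.5e-05), and Ptms, a small acidic nuclear protein chosen after its values were seen, fell by 1.95 in progenitors against 0.59 (adjusted p 2.5e-05). The share of cells with a UMI of Elane, S100a8 or S100a9 differed between the genotypes in the Flt3-positive Dntt-zero cells as well, at 41.7% and 46.1% in controls and 23.5% and 12.5% in knockouts. With such cells left out of both sets, 12 and 25 genes were called and 10 of the 167 were among them, including Clec12a and Ptms but not Irf8 or Hlf. With the replicate number as the block in place of the library, no gene was called by edgeR, and 400 had an unadjusted p under 0.05.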

How the data were processed

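Single-cell RNA-seq libraries (Chromium 3' chemistry) of sorted LSK cells were deposited by the authors as raw UMI counts per gene and barcode, 1 matrix per library. The submitters' processing notes name Cell Ranger 3.1 and mm10. The 4 libraries (2 control, 2 knockout) held 60330267, 25111828, 35986936 and 54850344 UMIs over 27998 genes, and the labels do not say beyond the numbering how replicates differ, so p-values measure the spread between these libraries only. Members and gene lists were chosen with earlier results of these data known, and no list is independent evidence.

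UMIs of members were summed per library and tested with edgeR 4.0.16 (quasi-likelihood test, TMM, filterByExpr, Benjamini-Hochberg adjustment, threshold 0.05). The same counts were tested with DESeq2 1.42.0, and the difference between cell sets was tested with library as block. The 15 highest and 10 lowest ratios against other cells, the 10 largest called rises and falls, Ranbp2, the sort genes Kit and Cd34 and genes of the 19 lists were named, and other genes are marked as chosen after their values were seen. A marker of the lists is not reported here. No doublet caller was run; leaving out members above 2 times the median UMIs of their library was an alternative. The knockout test was tested on simulated data. Shares carry exact binomial intervals. PCR duplicates were removed through the UMIs upstream. Gene positions are from GENCODE for GRCm38 and promoters from RefSeq for GRCm38.p6, credited to those tables. Alternatives were the Dntt, Flt3, UMI and barcode rules, thinning, normalization, filtering, the replicate block and each library left out.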

Additional observations from a re-analysis of the deposited data

Results flagged for a closer look

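For 24 genes on the report's lists, the knockout difference in Dntt-positive progenitors departed from that in Flt3-positive Dntt-zero cells in the edgeR interaction test. All values here are that difference of log2 changes. It was negative for Cd74 (-1.64), the invariant chain of MHC class II, and H2-Ab1 (-0.893), and Cd74 stood at 22, 49.2, 43.2 and 55.7 CPM in progenitors against 41.2, 57.9, 243 and 218 CPM in the other cells. Of the stem cell list, Mecom (-0.968), Hmga2 (-0.962), Hlf (-0.945), Ly6a (-0.657), Txnip (-0.645) and Meis1 (-0.614) were negative, as were Bcl11a (-0.574) and Lmo2 (-0.404) of the lymphoid transcription factors and Hbb-bt (-1.07), Car2 (-0.797) and Gata2 (-0.696) of the megakaryocyte and erythroid list. So were Il1r1 (-0.83), Ifi27l2a (-0.633), Cdkn1b (-0.553) and Ccnb2 (-0.441). Ddx4, on no list but covered by the naming rule, was called as well (-1.32). It lost the call with cells holding a UMI of Elane, S100a8 or S100a9 left out (-0.811).

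It was positive for Pou2f2 (0.446), Bcl2 (0.504), Irf8 (0.867), Csf1r (1.91), Clec12a (1.94), Car1 (2.58) and Cox6a2 (2.77). Car1 rested on 29 and 68 UMIs in 1 control and 1 knockout library, with 19 and 38 of them in single cells, and on none in the other 2. Cells with a UMI of Elane, S100a8 or S100a9 were more frequent in controls in both cell sets, and with them left out Ifi27l2a, Ccnb2, Clec12a and Car1 were still called and the other 20 of the 24 were not. Among those 20, the difference was 0.496 for Pou2f2 and 0.396 for Bcl2, near its size with all cells, and it changed sign for Cd74 (0.243).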

How the results depend on the processing

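The share of progenitors, which differed by -1.82 points, turned positive with smaller barcode copies kept (2.344) and ranged from -8.94 to 5.304 with 1 library left out. It stayed negative under the other 7 rules tried. The 170 genes called between genotypes became 64 with at least 5 Dntt UMIs, 15 after thinning to 3000 UMIs, 665 without the filter and 103 by DESeq2, and ranged from 4 to 1771 with 1 library left out. With the replicate number as a replicate block 204 genes were called. The correlation of deviations between control 1 and knockout 1 was -0.112. With 2 libraries per group this is a single free value, so it cannot show whether the numbers pair the samples. The crossed pairing, chosen after seeing the data, gave 498. Of the values of the 20 called and named genes under these alternatives, 270 kept their direction and call and 73 lost the call, 17 of them without knockout replicate 2 and 14 without knockout replicate 1. The 167 genes of the interaction became 348 without the filter, 37 without cells holding a UMI of Elane, S100a8 or S100a9 (chosen after seeing the data) and 0 with the replicate block, and ranged from 69 to 286 with 1 library left out. Of the 167, 18 turned direction without those cells. The causes of these shifts were not tested. Leaving out the 5 members rich in Jchain, Mzb1 and Ly6d was also chosen after seeing the data.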

Other observations

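Cell groups that share genes with the Dntt-positive progenitors were uneven between libraries. Cells with at least 5 UMIs of Igll1, Vpreb1 and Vpreb3 and none of Ms4a1 or Siglech, an early B-cell pattern, numbered 2, 3, 9 and 120 by library, and cells with a UMI of Ms4a1 and none of Kit, which is a mature B-cell pattern, numbered 2, 4, 81 and 89. Cells with a UMI of Siglech numbered 8, 0, 38 and 71. Few cells lay next to the rule here: 8 missed the rule only through the surrogate light chain genes, 7 of them in knockout replicate 2, and 6 only through Siglech. Ebf1, an early B-cell factor, stood at 0, 6.75, 43.2 and 34.3 CPM in the progenitors with 20 or more Dntt UMIs per 10000, where the knockout libraries hold 14 and 46 cells.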
